A study of Homo sapiens with 35 samples.

Results

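The L6 family of membrane proteins (gene symbols TM4SF) was followed in HCT116 colorectal carcinoma cells carrying hairpins against the Mediator kinases CDK8 or CDK19. The list holds 6 proteins: TM4SF18, TM4SF1, TM4SF4, TM4SF5, TM4SF19 and TM4SF20. Members were taken from array rows that carry a single gene symbol, and this rule found 5 of the 6 genes among 18404 tested genes. TM4SF19 had 0 rows of its own: its only row also lists the read-through transcript TM4SF19-DYNLT2B. That row is described apart as the TM4SF19 shared row, a choice made after its values were seen. The family was chosen by measured values, the high levels of TM4SF18 and TM4SF1 in the shCDK8 line, so every shCDK8 value of the family is given as a description with no test. The rule did not name the shCDK19 line or the responses of the control line, and these were tested. These tests are not fully separate from the choice, since an increase in shCDK8 is read against shControl arrays. The same shControl arrays enter the tests.

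Proteins of this family cross the membrane several times, as the tetraspanins do, but form a separate family. They gather integrins, growth factor receptors and signalling enzymes in small membrane domains and have been linked to the spreading and migration of carcinoma cells. TM4SF1, the L6 tumour antigen, marks many carcinomas and growing vascular endothelium. TM4SF4 is found in intestine and liver, TM4SF5 in hepatocytes and liver carcinoma, and TM4SF19 in osteoclasts, whereas TM4SF18 has been studied little. TM4SF20 sits in internal membranes, where it holds back cleavage of the transcription factor CREB3L1.

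The 35 arrays fell into 14 groups from 4 experiments. All cells were HCT116 and carried a hairpin: a non-target one in shControl, one against CDK8 in shCDK8 and one against CDK19 in shCDK19. In normal growth each line had 3 arrays. For 5-fluorouracil (5FU), an antimetabolite, shControl had 2 arrays after 12 h in DMSO, and each of the 3 lines had 2 arrays after 12 h of 5FU. For glucose, shControl had 3 arrays after 24 h in high glucose DMEM, and each line had 3 after 24 h in low glucose DMEM. For hypoxia, each line had 2 arrays after 24 h in 1% oxygen. Knockdown arrays in DMSO or high glucose, and normoxic arrays of the hypoxia experiment, were not analysed here. The labels give 1 line per target, so a hairpin and its line cannot be told apart. Since no label calls the replicates separate cultures, their spread, and with it each p-value, may be technical only.

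Values are deposited log2 signals with a shared floor of 4.32, at which 8.48% to 9.97% of the rows of an array lie. Within groups, arrays correlated at 0.976 to 0.998. The lowest of these correlations was that of the 2 shControl hypoxia arrays. Replicate 1 of that pair also had the narrowest interquartile range of all arrays, 3.24 against 3.45 to 3.79 on the other 34. The row CDK8 shares with ADRA1B was 4.07- to 6.7-fold lower in shCDK8 than in shControl cells in the 4 experiments (limma, adjusted p from 5.31e-06 to 0.0347). CDK19 was 2.11- to 2.95-fold lower in shCDK19 cells in 3 experiments (adjusted p from 2.22e-06 to 0.0131) and had a difference of -1.10 ± 0.14 (SE) with an adjusted p of 0.0948 in hypoxia. Epithelial markers were present, with group means of 12.8 to 13.4 for KRT8 and 10.7 to 12.4 for EPCAM. Of the 10 colon epithelium markers, the intestinal cadherin CDH17 was near the floor, with group means of 4.85 to 5.06. VIL1 (6.07 to 6.77) and LGALS4 (6.86 to 7.75) were also far below KRT8 and EPCAM.

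TM4SF18, TM4SF1 and TM4SF4 lie next to each other on chromosome 3. The 250 bases before each RefSeq start (GRCh38.p14, gene strand) are shown because these neighbours share a locus while their levels in the shCDK8 line differ. TM4SF18 (chr3:149333637-149333886, minus strand) and TM4SF1 (chr3:149377650-149377899, minus strand) hold matches to the TEAD core GGAATG or its reverse complement CATTCC, printed in capitals. TM4SF4 (chr3:149474447-149474696, plus strand) holds 0 matches to any motif searched.
TM4SF18: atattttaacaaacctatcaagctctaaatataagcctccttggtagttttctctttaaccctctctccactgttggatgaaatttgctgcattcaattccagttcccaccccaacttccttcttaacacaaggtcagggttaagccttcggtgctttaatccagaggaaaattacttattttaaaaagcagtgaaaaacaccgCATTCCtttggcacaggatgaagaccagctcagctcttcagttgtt
TM4SF1: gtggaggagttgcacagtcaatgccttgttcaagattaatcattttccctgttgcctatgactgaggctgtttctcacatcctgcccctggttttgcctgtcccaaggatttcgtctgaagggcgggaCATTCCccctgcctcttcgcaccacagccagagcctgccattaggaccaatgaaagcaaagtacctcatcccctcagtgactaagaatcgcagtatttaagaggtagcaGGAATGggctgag
TM4SF4: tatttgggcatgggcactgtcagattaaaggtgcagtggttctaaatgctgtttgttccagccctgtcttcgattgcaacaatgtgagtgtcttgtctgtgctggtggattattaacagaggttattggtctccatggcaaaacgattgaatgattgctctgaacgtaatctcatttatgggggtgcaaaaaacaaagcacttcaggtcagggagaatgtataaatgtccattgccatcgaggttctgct
The TM4SF18 match covers bases 46 to 41 before the start, in the reverse orientation. TM4SF1 has a reverse match at bases 122 to 117 and a forward match at bases 13 to 8. On both strands 5 motifs were searched, none of them a part of another: GGAATG for TEAD, TGANTCA for AP-1, CTTTGAT for TCF/LEF, ACGTG for the HIF core and AGATAA for GATA factors. Among 35116 promoter windows of the same length, 11.9% hold the TEAD letters, 6.6% AP-1, 2.3% TCF/LEF, 18.5% the HIF core and 9.2% GATA. Outside the locus, the TM4SF19 window has an AP-1 match, the TM4SF20 window has a GATA match, and the TM4SF5 window has none. A match is a description of the letters and not a measured site.

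TM4SF18 separated the shCDK8 line from both other lines in every experiment. Its log2 level was 5.30 to 6.29 on the 25 shControl and shCDK19 arrays and 9.79 to 10.80 on the 10 shCDK8 arrays, with no overlap. In normal growth shControl arrays read 5.37, 5.44 and 5.49, shCDK8 arrays 10.46, 10.72 and 10.80, and shCDK19 arrays 6.02, 5.69 and 5.81. The shCDK8 arrays stood far above the rest, and the lowest shCDK19 array lay just above the highest shControl array. In the 5FU experiment the shControl arrays read 5.57 and 5.82 in DMSO and 5.99 and 5.63 in 5FU, the shCDK8 arrays 10.78 and 10.76, and the shCDK19 arrays 5.77 and 5.77. In the glucose experiment the shControl arrays read 5.53, 5.59 and 5.33 in high and 5.33, 5.44 and 5.30 in low glucose. In low glucose the shCDK8 arrays read 9.86, 10.24 and 9.79, and the shCDK19 arrays 6.02, 6.29 and 5.87. All 3 shCDK19 arrays in low glucose therefore lay above all 6 shControl arrays of that experiment. In hypoxia the shControl arrays read 5.65 and 5.46, the shCDK8 arrays 9.99 and 9.96, and the shCDK19 arrays 5.58 and 5.46.

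As a description, TM4SF18 was higher in shCDK8 than in shControl cells by 5.23 ± 0.11 (SE, log2) in normal growth, a 37.4-fold ratio. The ratio was 31.2-fold in 5FU, 24.3-fold in low glucose and 21.4-fold in hypoxia. By size of the increase TM4SF18 ranked 3, 1, 3 and 7 of 18404 genes in normal growth, 5FU, low glucose and hypoxia. It was the only one of the 5 members at least 2-fold higher in normal growth, where 1.13% of all genes were, in 5FU, where 0.375% were, and in hypoxia, where 2.14% were. In low glucose TM4SF18 and TM4SF1 both were, against 0.810% of all genes. Nothing is read from these counts, since the shCDK8 increases chose the family. Among the 14 group means of TM4SF18, adjacent means had separate arrays at 2 of 13 steps. One step parted shCDK8 in normal growth (10.66 ± 0.18, SD, n = 3) from shCDK8 in hypoxia (9.98 ± 0.016, n = 2), and the other parted shCDK8 in low glucose (9.96 ± 0.24, n = 3) from shCDK19 in low glucose (6.06 ± 0.22, n = 3). The order among the other 10 groups did not exceed their spread at any step. Since whole cultures were measured, more cells with the transcript and more transcript per cell cannot be told apart.

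**Figure D1:**
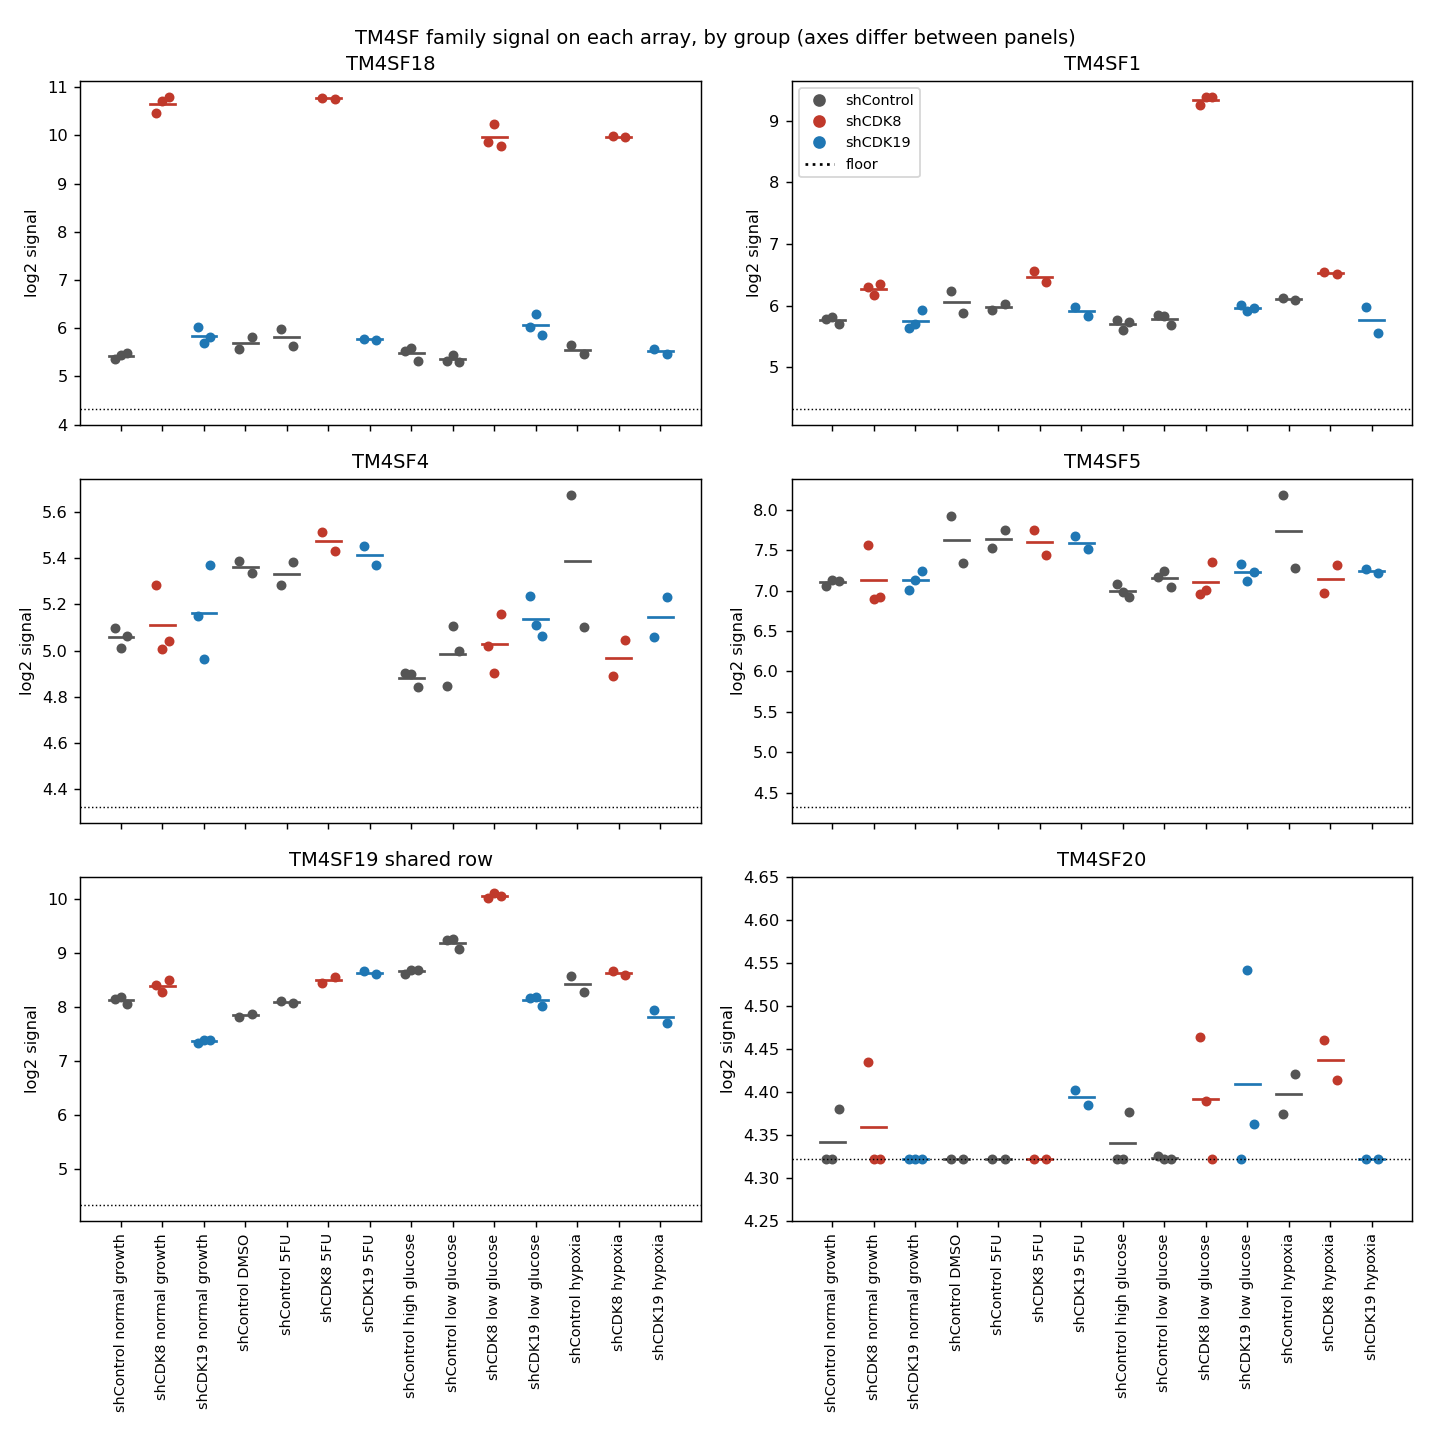
Log2 signal of the 5 family genes and the TM4SF19 shared row on each of the 35 arrays (points) with the group means (bars), by group, and the floor of 4.32 as a dotted line. The y axes differ between panels. TM4SF18 is at 9.79 to 10.80 on the 10 shCDK8 arrays and at 5.30 to 6.29 on the other 25, while TM4SF1 is at 9.25 to 9.39 in shCDK8 cells in low glucose and at or below 6.55 on all other arrays.

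In shCDK19 cells TM4SF18 was tested against shControl cells of the same condition. In low glucose it was higher by 0.70 ± 0.13 (SE, log2), a 1.62-fold ratio (limma, adjusted p = 0.0049). Of all genes 19.9% were called there in either direction. TM4SF18 was the only one of the 5 members called in that comparison, and it was called under all 15 alternative settings (0.58 to 0.83). In normal growth 0 of 5 members were called in shCDK19 cells by limma and 1, TM4SF18, had an unadjusted p under 0.05, against a background of 7.07% of genes called. Its difference there was 0.41 ± 0.11, or 1.33-fold (adjusted p = 0.073), and it passed under 4 of 15 alternatives (1 fit of all arrays, the compared groups alone, dim genes left out, and the interquartile range as a covariate), with adjusted p over all 15 from 0.0187 to 0.225. In 5FU the difference was -0.04 ± 0.14 (adjusted p = 0.972), and in hypoxia it was -0.04 ± 0.10 (adjusted p = 0.868). None of the 5 members was called in shCDK19 cells in 5FU (background 0.837%) or in hypoxia (background 0.228%), and 0 had an unadjusted p under 0.05 in either. The shCDK19 effect on TM4SF18 did not pass a test of difference between experiments: against normal growth it differed by 0.29 ± 0.17 in low glucose (adjusted p = 0.667) and by -0.45 ± 0.19 in 5FU (adjusted p = 0.288).

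TM4SF1, the L6 antigen, stood apart in 1 group. In low glucose the shCDK8 arrays read 9.25, 9.38 and 9.39, against 5.84, 5.84 and 5.69 in shControl and 6.01, 5.92 and 5.96 in shCDK19 cells. The 3 shCDK8 arrays lay far above the other groups, which were close to each other. In normal growth the shControl arrays read 5.78, 5.81 and 5.70, the shCDK8 arrays 6.30, 6.18 and 6.34, and the shCDK19 arrays 5.64, 5.70 and 5.93. In the 5FU experiment the shControl arrays read 6.24 and 5.88 in DMSO and 5.92 and 6.03 in 5FU, the shCDK8 arrays 6.55 and 6.38, and the shCDK19 arrays 5.98 and 5.84. In hypoxia the shControl arrays read 6.12 and 6.09, the shCDK8 arrays 6.55 and 6.51, and the shCDK19 arrays 5.98 and 5.56. In these 3 experiments too, each shCDK8 array was above each shControl array of the same condition, by a much smaller step. The shControl arrays in high glucose read 5.76, 5.60 and 5.73.

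Described in the same way, TM4SF1 was higher in shCDK8 than in shControl cells by 0.51 ± 0.084 (SE, log2; 1.42-fold) in normal growth. The ratio was 1.41-fold in 5FU, 11.7-fold (3.55 ± 0.062) in low glucose and 1.34-fold in hypoxia. Its rank by increase among 18404 genes was 764 in normal growth, 351 in 5FU, 6 in low glucose and 2471 in hypoxia. The low glucose medium was DMEM and the normal growth medium McCoy's 5A, and no shCDK8 array in high glucose was analysed here, so the sugar and the medium cannot be told apart. Across the 14 group means, adjacent TM4SF1 means had separate arrays at 3 of 13 steps. The largest of these, 2.81, lay between shCDK8 in low glucose (9.34 ± 0.077, SD, n = 3) and shCDK8 in hypoxia (6.53 ± 0.027, n = 2). In shCDK19 cells the tested difference was -0.0074 ± 0.084 in normal growth (adjusted p = 1), -0.07 ± 0.14 in 5FU (0.931), 0.17 ± 0.062 in low glucose (0.079) and -0.34 ± 0.15 in hypoxia (0.434). None of these passed the threshold, and the 95% interval in normal growth ran from -0.21 to 0.20.

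TM4SF1 is also an endothelial gene, so markers of endothelium were set beside it. Of 12 such markers 0 were higher in shCDK8 than in shControl cells in low glucose by limma, and 1, the vessel adhesion molecule PECAM1, was lower (-0.41 ± 0.11, adjusted p = 0.0221). Of all genes 22.3% were called there in either direction. The log2 of the summed level of the 12 markers was 10.39 to 10.48 on the shControl and 10.38 to 10.46 on the shCDK8 arrays in low glucose. No endothelial marker was at the floor on any array. The summed endothelial level of the group where TM4SF1 was highest thus overlapped that of the control arrays.

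**Figure D2:**
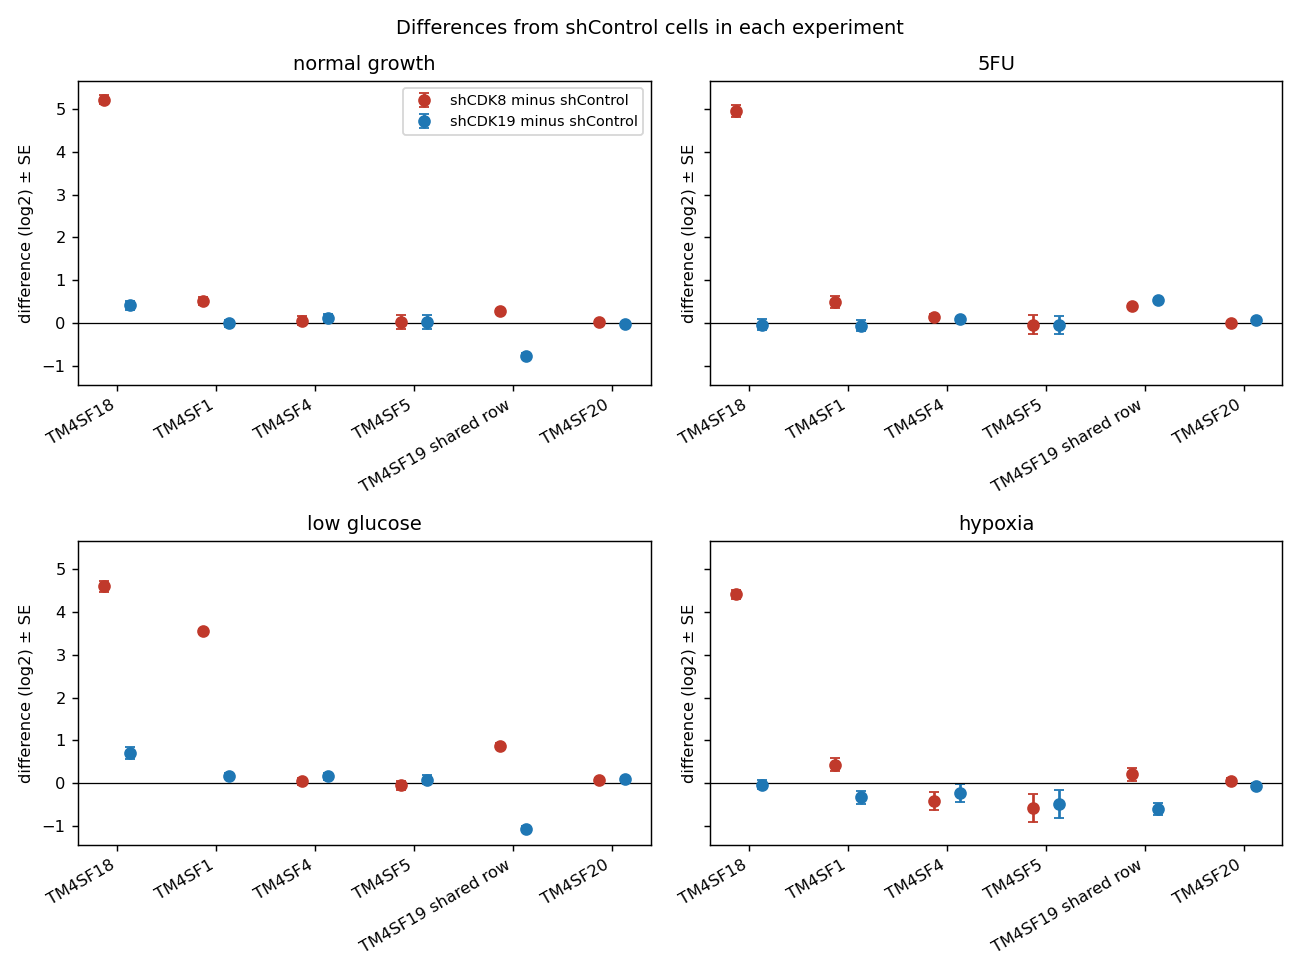
Differences from shControl cells (log2, points, with SE bars) for each family gene and the TM4SF19 shared row in the 4 experiments, for shCDK8 (red, described only) and shCDK19 (blue, tested). TM4SF18 is 4.42 to 5.23 higher in shCDK8 cells in all 4 panels and TM4SF1 3.55 higher in low glucose, while the shared row in shCDK19 cells is at -1.07 in low glucose and 0.53 in 5FU.

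TM4SF4, the third gene of the locus, stayed low in every group. Its lowest, median and highest arrays read 4.84, 5.10 and 5.67, and its 14 group means spanned 0.59 with a pooled SD of 0.14 within groups. At 0 of 13 steps did adjacent group means have separate arrays. The shCDK8 minus shControl value was 0.05 ± 0.11 in normal growth, 0.14 ± 0.064 in 5FU, 0.04 ± 0.080 in low glucose and -0.42 ± 0.21 in hypoxia. The hypoxia value was -0.13 without shControl hypoxia replicate 1, -0.71 without replicate 2, and -0.0047 with the arrays' interquartile range as a covariate. In shCDK19 cells the tested differences lay between -0.24 and 0.15, and the adjusted p was at least 0.231. The large shCDK8 values of TM4SF18 and TM4SF1 therefore had no counterpart in TM4SF4.

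The genes around the 3 family members were listed by their RefSeq order: CPA3, GYG1, HLTF, HPS3 and CP on one side and WWTR1, COMMD2, ANKUB1, RNF13 and PFN2 on the other. ANKUB1 had no tested row, which left 9. Of these, 2 were higher in shCDK8 than in shControl cells in normal growth, where 24.9% of all genes were called in either direction. They were GYG1, glycogenin (0.38 ± 0.10, adjusted p = 0.0343), and WWTR1, the transcriptional coactivator TAZ (0.62 ± 0.055, adjusted p = 0.000173). In low glucose 3 were higher (background 22.3%): GYG1 (0.50 ± 0.045), WWTR1 (0.23 ± 0.051) and COMMD2 (0.20 ± 0.059). In hypoxia GYG1 (0.89 ± 0.14, adjusted p = 0.0364) and RNF13, a membrane-bound ubiquitin ligase (0.63 ± 0.083, adjusted p = 0.0236), were higher, against 7.30% of all genes called. In 5FU 0 of 9 were called by limma, 2 had an unadjusted p under 0.05, and 3.50% of all genes were called. None of the 9 was lower in any of the 4 experiments by this test. The median of the 9 differences was 0.06, 0.04, 0.07 and 0.40 in normal growth, 5FU, low glucose and hypoxia, beside -0.02, 0.01, -0.0017 and -0.07 over all genes. For hypoxia against normal growth the neighbour median was -0.35 in shControl and -0.04 in shCDK8 cells, beside 0.06 and 0.0029 over all genes. Against shCDK19 cells in hypoxia, the shCDK8 median was 0.14, beside -0.02. The part of the shControl hypoxia arrays in the value of 0.40 was not tested. CP, next to TM4SF18, encodes ceruloplasmin and stayed near the floor, with group means of 4.32 to 4.49. WWTR1, next to TM4SF4, was well expressed, with group means of 10.39 to 11.30. In shCDK19 cells 1 of the 9 neighbours was higher in normal growth (7.07% of all genes called), WWTR1 (0.29 ± 0.055, adjusted p = 0.0204). In low glucose 2 were higher (19.9% called), WWTR1 (0.23 ± 0.051, adjusted p = 0.00989) and HLTF, a DNA translocase (0.30 ± 0.069, adjusted p = 0.0132). In shCDK19 cells in 5FU and hypoxia 0 of 9 were called by limma, with 1 and 2 at an unadjusted p under 0.05, and none of the 9 was called lower in shCDK19 cells in the 4 experiments.

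**Figure D3:**
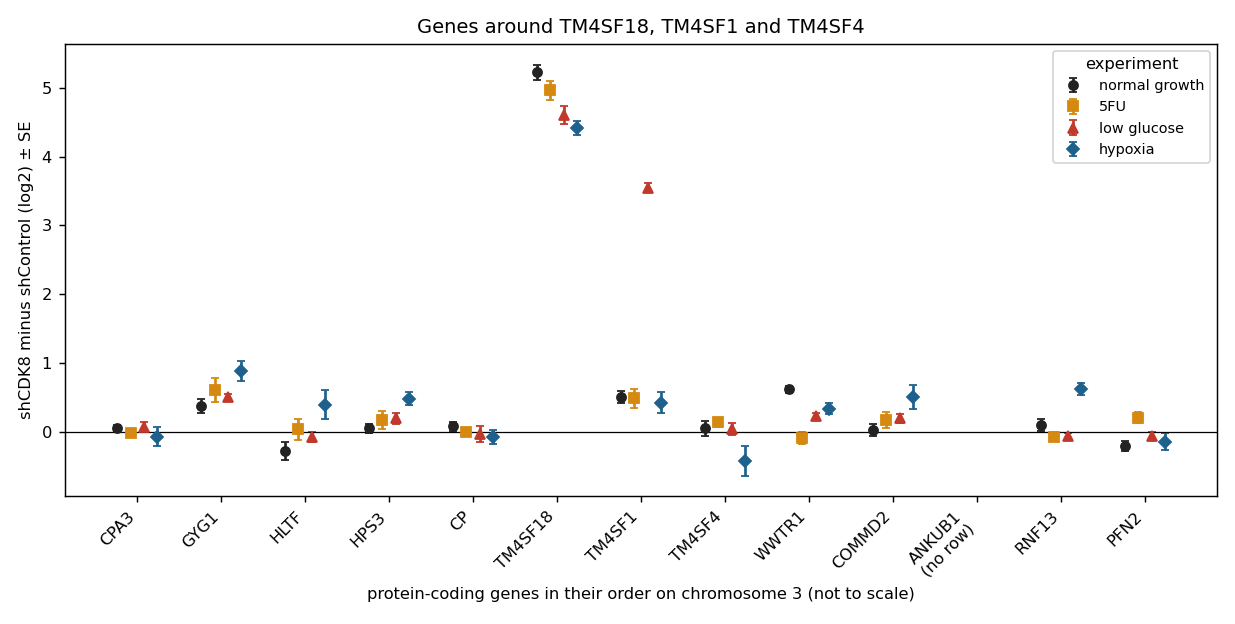
Differences between shCDK8 and shControl cells (log2, points, with SE bars) for protein-coding genes in their order along chromosome 3, not to scale, one symbol per experiment. TM4SF18 stands at 4.42 to 5.23 in all experiments and TM4SF1 at 3.55 in low glucose, whereas no neighbour reaches 1 in any experiment.

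Genes whose group means followed those of TM4SF18 most closely were NRG1, a ligand of ERBB receptors (Pearson r = 0.983), TNFSF4, a TNF family ligand (0.970), NRP2, a semaphorin receptor (0.958), SEMA3A, a secreted semaphorin (0.950), and ISM1 (0.944). These are correlations over 14 group means, among 6309 genes whose means span over 1 log2 unit. The 4 shCDK8 means lie apart from the other 10 and carry most of the spread, and the genes were measured on the same arrays. By Spearman's rho 1 of these 5 genes, ISM1, was among the top 5. NRG1 was high in the shCDK8 line, with group means of 7.49 to 8.15 there and 5.90 to 6.41 elsewhere. SEMA3A was also higher in shCDK19 than in shControl cells, by 0.73 ± 0.062 in normal growth and 1.19 ± 0.086 in low glucose, given without a test because these means helped to choose it. For TM4SF1 the closest genes were AMIGO2 (r = 0.981), SLC5A1, the sodium-glucose cotransporter (0.963), EDA2R, a TNF receptor family member (0.930), STK32A (0.925) and LINC01559 (0.903). This likeness leans on the single high group: without shCDK8 in low glucose the r values were 0.755, 0.496, 0.839, 0.719 and 0.516 in the same order. Between the family genes themselves r was 0.597 for TM4SF1 with TM4SF18 and -0.03 for TM4SF4 with TM4SF18.

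**Figure D4:**
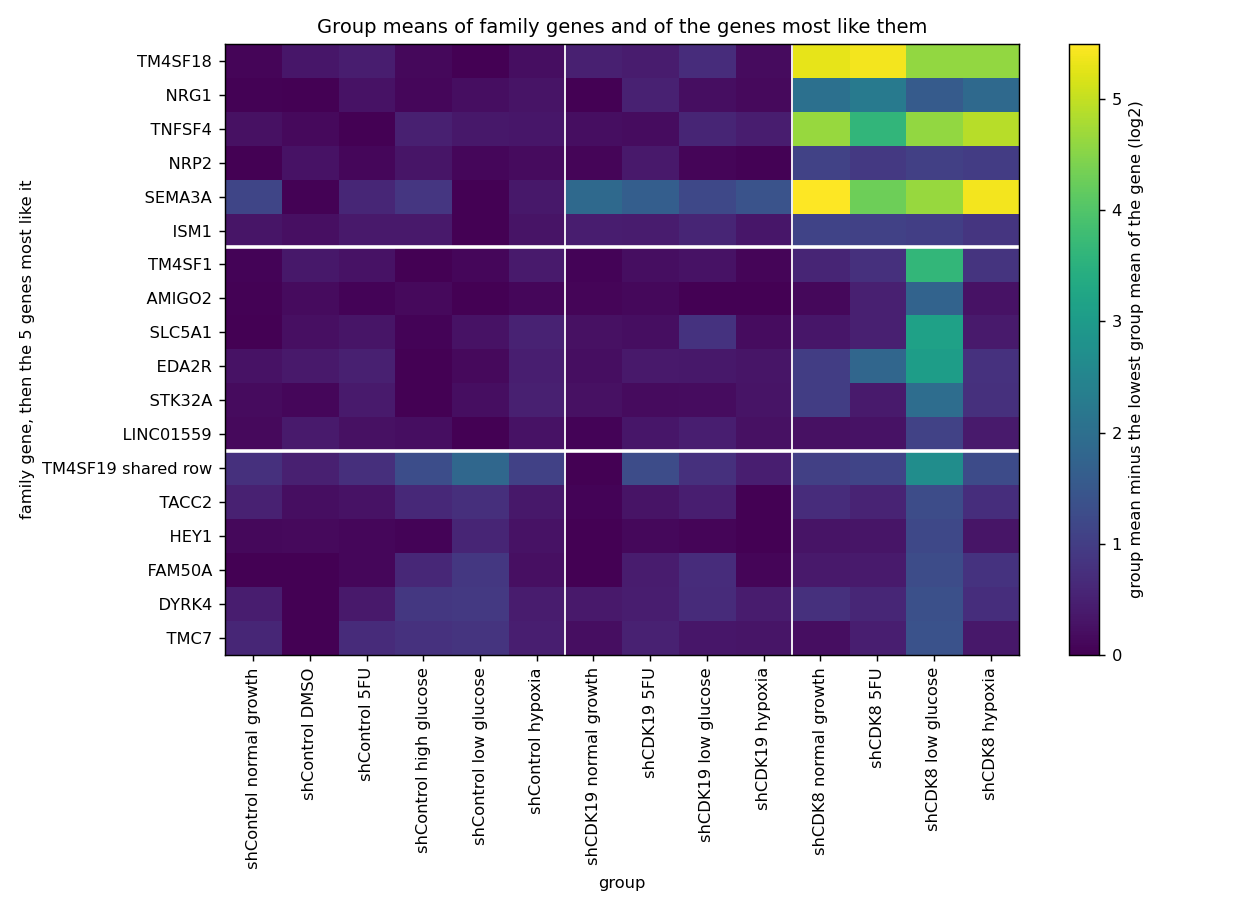
Group means (log2) of TM4SF18, TM4SF1 and the TM4SF19 shared row, each followed by the 5 genes most like it, drawn as the difference from the lowest group mean of the same gene (colour scale). Columns are the 14 groups ordered by line, shControl, shCDK19, then shCDK8. The TM4SF18 block is bright in all 4 shCDK8 columns and the TM4SF1 block in shCDK8 low glucose.

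The TM4SF19 shared row was lower in shCDK19 than in shControl cells in normal growth and in low glucose, and its difference had the opposite sign in 5FU. In normal growth the shControl arrays read 8.14, 8.19 and 8.04 and the shCDK19 arrays 7.32, 7.38 and 7.37, with no overlap. The row fell in shCDK19 cells by 0.77 ± 0.062 on the log2 scale (limma over 32321 transcript clusters, adjusted p = 0.00161), to a 1.7-fold lower level, where 3.83% of all clusters were called. In low glucose the shControl arrays read 9.23, 9.25 and 9.08, and the shCDK19 arrays 8.16, 8.18 and 8.01. The fall was 1.07 ± 0.058 in size, or 2.1-fold (difference -1.07, adjusted p = 1.23e-05), against a background of 11.9% of clusters. In hypoxia the arrays read 8.57 and 8.27 in shControl and 7.93 and 7.70 in shCDK19 cells, without overlap. The difference of -0.61 ± 0.15 did not pass (adjusted p = 0.28, background 0.00619%), except in 1 fit of all 35 arrays (adjusted p from 6.69e-05 to 0.84 over 13 alternatives). In 5FU the order was turned: shControl arrays read 8.11 and 8.07, and shCDK19 arrays 8.65 and 8.60. The difference there was 0.53 ± 0.050 (adjusted p = 0.0528, background 0.328%), and 3 of 13 alternatives passed (1 fit of all arrays, quantile normalization and the interquartile range as a covariate, adjusted p from 0.000646 to 0.289 over all 13).

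The reversal in 5FU was tested directly. The shCDK19 effect on the shared row in 5FU minus its effect in normal growth was 1.30 ± 0.11 on the log2 scale (limma, adjusted p = 1.49e-07), where 2.25% of clusters were called. This comparison was added after the values were seen. Over 18 alternatives the value ran from 1.26 to 1.34 and the adjusted p from 1.44e-07 to 0.000437. The same contrast called 0 of the 5 members, with 1, TM4SF18, at an unadjusted p under 0.05, and 4.0% of all genes. For low glucose minus normal growth the shared row gave -0.30 ± 0.10 (adjusted p = 0.256, background 1.04% of clusters), and 0 of 5 members were called, with 0 at an unadjusted p under 0.05, against 1.79% of genes. No knockdown array in DMSO was analysed here, so 5FU, its solvent and the experiment cannot be told apart in this reversal.

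In shControl cells the shared row answered to glucose. High glucose arrays read 8.60, 8.67 and 8.68, below the low glucose arrays at 9.23, 9.25 and 9.08. The rise in low glucose was 0.53 ± 0.058, or 1.45-fold (adjusted p = 0.000238), where 20% of clusters were called. As a description, the shCDK8 arrays in low glucose were the highest of all 35 for this row, at 10.01, 10.11 and 10.05. That is 0.87 ± 0.058 above shControl, a 1.83-fold ratio. In the other experiments the shCDK8 minus shControl value was 0.27 in normal growth, 0.40 in 5FU and 0.20 in hypoxia (0.05 to 0.44 over the alternatives in hypoxia). Against DMSO, at 7.80 and 7.87, the shControl arrays in 5FU were higher by 0.26 ± 0.050 (adjusted p = 0.0642, background 5.01% of clusters). After quantile normalization this difference passed, at 0.34 (adjusted p = 0.0305, with 0.0305 to 0.255 over the alternatives).

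DYNLT2B, the dynein light chain gene joined to TM4SF19 in the read-through, has a row of its own. It fell in low against high glucose in shControl cells (-0.62 ± 0.18, adjusted p = 0.0252), while the shared row rose. In shCDK19 cells DYNLT2B had a difference of -0.16 ± 0.092 in normal growth (adjusted p = 0.456) and of -0.31 ± 0.18 in low glucose (adjusted p = 0.293). In 5FU its difference was 0.29 ± 0.25 (adjusted p = 0.742), and 5FU minus normal growth gave 0.45 ± 0.26 (adjusted p = 0.563). Genes most like the shared row were TACC2 (r = 0.895), HEY1, a Notch target and transcriptional repressor (0.890), FAM50A (0.880), DYRK4, a kinase (0.847), and TMC7 (0.836). Since TM4SF19 is known from osteoclasts, 8 tested leukocyte and osteoclast markers were set beside it. Of these, 1 was called in low against high glucose, where 31.2% of all genes were, and 2 in shCDK19 against shControl cells in low glucose, where 19.9% were, while 0 were called in shCDK19 cells in normal growth or 5FU by limma, with 1 at an unadjusted p under 0.05 in each. CD68, a lysosomal glycoprotein, was higher in low than in high glucose in shControl cells (1.17 ± 0.070, adjusted p = 1.58e-06). In low glucose CD68 (-0.31 ± 0.070, adjusted p = 0.0109) and CTSK, the osteoclast protease cathepsin K (-0.54 ± 0.087, adjusted p = 0.0018), were lower in shCDK19 than in shControl cells. The log2 of the summed level of the 8 markers was 10.05 to 10.10 in shControl in high glucose, 10.72 to 10.88 in shControl and 10.49 to 10.60 in shCDK19 cells in low glucose. In normal growth it was 10.33 to 10.36 in shControl and 10.18 to 10.26 in shCDK19 cells, and in 5FU 10.64 to 10.68 and 10.75 to 10.78. On the shCDK8 arrays in low glucose, where the shared row was highest, the sum was 11.25 to 11.35. In hypoxia it was 11.36 to 11.55 in shControl, 11.08 to 11.09 in shCDK8 and 11.29 to 11.33 in shCDK19 cells, while the shared row was 0.20 higher in shCDK8 than in shControl cells. The sum follows mainly CD68, whose group means were 9.11 to 11.07 while those of the other 7 markers were at most 7.64. In low against high glucose the median difference of the 8 markers was 0.0049, beside 0.02 over all genes. PTPRC, which marks leukocytes in general, was at the floor on 13 arrays and had group means of 4.32 to 4.48. The part of these markers in the level of the shared row was not tested.

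TM4SF5 was measured at 6.89, 7.24 and 8.19 on its lowest, median and highest arrays, and its group means spanned 0.73 with a pooled SD of 0.24. Its shCDK8 minus shControl values were 0.02 ± 0.17 in normal growth, -0.04 ± 0.22 in 5FU, -0.05 ± 0.10 in low glucose and -0.59 ± 0.32 in hypoxia. The hypoxia value was -0.13 without shControl hypoxia replicate 1, -1.04 without replicate 2, and 0.12 with the interquartile range as a covariate. Over the 14 group means TM4SF5 and TM4SF4 had an r of 0.929, with both highest in the DMSO and 5FU groups and in shControl hypoxia. Both read highest on shControl hypoxia replicate 1 (8.19 and 5.67), the array with the narrowest interquartile range. The part of the arrays' spread in this r was not tested. TM4SF20 was at the floor on 21 of 35 arrays and reached 4.54 at most. It has only a bound on those arrays, and the median of the 14 arrays above the floor was 4.40. TM4SF20 was at the floor on all arrays in 5 groups, among them shControl in DMSO and in 5FU. TM4SF5 and TM4SF20 passed in no experiment in shCDK19 cells, where the hypoxia difference of TM4SF5 was -0.49 ± 0.32 (adjusted p = 0.562). Without shControl hypoxia replicate 2 it was -0.94 (adjusted p = 0.0371, with 0.0371 to 0.991 over the alternatives), but the control group is then replicate 1 alone, whose spread is assumed to be that of the other groups.

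The 5 members were also followed through the stresses of the control line. By limma 0 of 5 were called for 5FU against DMSO, where 11.5% of all genes were, and 0 had an unadjusted p under 0.05. For low against high glucose 0 of 5 were called, again with 0 at an unadjusted p under 0.05, although 31.2% of all genes were called. TM4SF18 differed by -0.13 ± 0.13 (adjusted p = 0.548) and TM4SF1 by 0.09 ± 0.062 (adjusted p = 0.328) between low and high glucose. The control line therefore showed no called change of TM4SF18 or TM4SF1 in low glucose.

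For hypoxia against normal growth in shControl cells 3 of 5 members were called, where 47.8% of all genes were. TM4SF1 was higher by 0.34 ± 0.11 (adjusted p = 0.0125), TM4SF4 by 0.33 ± 0.13 (adjusted p = 0.0352) and TM4SF5 by 0.63 ± 0.21 (adjusted p = 0.0175). The shared row was higher by 0.30 ± 0.081 (adjusted p = 0.00721, background 34.4% of clusters), and TM4SF18 differed by 0.12 ± 0.14 (adjusted p = 0.455). The TM4SF4, TM4SF5 and shared row values changed with 1 array, whereas that of TM4SF1 hardly moved, with hypoxia arrays at 6.12 and 6.09. TM4SF5 read 7.06, 7.13 and 7.12 in normal growth and 8.19 and 7.28 in hypoxia, and TM4SF4 read 5.10, 5.01 and 5.06, then 5.67 and 5.10. Replicate 1 is the hypoxia array with the narrow interquartile range of 3.24. Without it TM4SF4 was at 0.04, TM4SF5 at 0.18 and the shared row at 0.14, while TM4SF1 stayed at 0.33. Each of these, TM4SF1 included, lost its limma call in that fit. That fit leaves 1 array in the hypoxia group, with a spread assumed from the other groups. TM4SF1 also lost its limma call after quantile normalization, at 0.14 (adjusted p = 0.251), and with the interquartile range as a covariate, at 0.11 (adjusted p = 0.563). Over all alternatives the highest adjusted p values were 0.563 for TM4SF1, 0.891 for TM4SF4, 0.672 for TM4SF5 and 0.348 for the shared row, and the lowest were 0.00787, 0.00037, 0.000289 and 0.000383. TM4SF5 was also highest on the array with the lowest interquartile range in DMSO (7.92, range 3.45) and in shCDK8 normal growth (7.57, range 3.50). With the interquartile range as a covariate TM4SF4 and TM4SF5 changed sign, to -0.057 (adjusted p = 0.784) and -0.22 (adjusted p = 0.206), and oxygen and experiment cannot be told apart.

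In shCDK19 cells 0 of 5 members were called for hypoxia against normal growth, with 1, TM4SF18 (-0.32 ± 0.14, adjusted p = 0.0836), at an unadjusted p under 0.05, while 31.3% of all genes were called. Without shCDK19 normal growth replicate 2, TM4SF18 passed, at -0.40 (adjusted p = 0.0497, with a range of 0.0497 to 0.342 over the alternatives). The shared row rose by 0.46 ± 0.081 (adjusted p = 0.000137, background 21.6% of clusters) and was called under all 13 alternatives. Tested against the hypoxia effect in shControl cells, 0 of 5 members differed in shCDK19 cells, with 2 at an unadjusted p under 0.05, against 2.08% of genes. The shared row differed by 0.16 ± 0.11 (adjusted p = 0.556, background 1.26% of clusters). Without shControl hypoxia replicate 2, which leaves replicate 1 alone in its group with a spread assumed from the other groups, TM4SF4 (-0.63, adjusted p = 0.0099) and TM4SF5 (-0.97, adjusted p = 0.0181) passed in this contrast. As a description, TM4SF18 in shCDK8 cells was lower by 0.68 ± 0.14 in hypoxia than in normal growth (10.66 against 9.98), and TM4SF1 was higher by 0.26 ± 0.11.

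A list of 16 membrane and adhesion proteins that L6 family proteins are known to act with was set beside the family. In shCDK8 cells 9 were higher and 2 lower than in shControl cells in normal growth, with a median of 0.31 beside -0.02 over all genes, of which 24.9% were called. The largest changes were ITGB4, the hemidesmosome integrin (1.47 ± 0.052, adjusted p = 1.75e-06), CD44, the hyaluronan receptor (0.98 ± 0.058, adjusted p = 2.5e-05), and ITGA3, a laminin-binding integrin (0.80 ± 0.051, adjusted p = 3.66e-05). In low glucose 7 were higher and 3 lower (22.3% of all genes called), led by IGF1R, the insulin-like growth factor receptor (1.18 ± 0.072, adjusted p = 1.86e-06), and ITGB4 (0.85 ± 0.039, adjusted p = 2.54e-07). In hypoxia, where 7.30% of all genes were called, 5 were higher, ITGB4 most (0.95 ± 0.081, adjusted p = 0.00957), and 1 was lower, ITGA5, the fibronectin receptor subunit (-0.86 ± 0.078, adjusted p = 0.0109). In 5FU, where 3.50% were called, 1 was higher, CD44 (0.60 ± 0.069, adjusted p = 0.0144), and 2 were lower, ITGA2 (-1.15 ± 0.13, adjusted p = 0.015) and EGFR (-0.37 ± 0.048, adjusted p = 0.0201). The shCDK8 median of the list was -1e-04 in 5FU, 0.09 in low glucose and 0.28 in hypoxia, beside 0.0088, -0.0017 and -0.07 over all genes. In shCDK19 cells 5 were higher and 2 lower in normal growth, 1 was higher in 5FU, 4 were higher and 3 lower in low glucose, and 0 were called in hypoxia, where 4 had an unadjusted p under 0.05. The shares of all genes called in these shCDK19 comparisons were 7.07%, 0.837%, 19.9% and 0.228%. CD44 was higher in shCDK19 cells in normal growth (0.76 ± 0.058, adjusted p = 0.000347) and low glucose (0.47 ± 0.035, adjusted p = 1.26e-05).

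Tetraspanins, the separate family with the same number of membrane segments, were counted for comparison, with 32 of 33 genes tested. In shCDK8 cells 7 were higher and 4 lower in normal growth, 1 and 3 in 5FU, 5 and 6 in low glucose, and 4 and 1 in hypoxia. Over all genes 24.9%, 3.50%, 22.3% and 7.30% were called in these comparisons. The largest change from shControl cells in size was that of TSPAN18, at -1.28 ± 0.052 in normal growth (adjusted p = 3.7e-06), 0.69 ± 0.081 in low glucose (adjusted p = 0.000175) and -1.17 ± 0.15 in hypoxia (adjusted p = 0.0224). TM4SF18 differed by 4.42 to 5.23 in the same comparisons, but it was chosen for its increase in this line, so nothing is read from the contrast. In low against high glucose in shControl cells 2 tetraspanins were higher and 19 lower, where 31.2% of all genes were called, with a median of -0.24 beside 0.02 over all genes. None of the 5 TM4SF members was called in that comparison.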

How the data were processed

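Total RNA of 35 HCT116 samples was hybridised to Affymetrix gene arrays, 1 per sample, per the labels. The deposited values are log2 signals, judged from their range. The submitters' processing notes name Partek. How background was corrected and arrays were scaled is not given in the sources used here. A shared floor shortens the differences of dim genes. Of 32321 transcript clusters, 19158 had 1 gene symbol, 1388 several and 11775 none. The row with the highest mean was kept for 637 genes with several rows, leaving 18404 genes.

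Groups were compared with limma 3.58.1 (lmFit, eBayes; R 4.3.3), with all arrays of an experiment in 1 fit. Hypoxia against normal growth and differences of effects used 1 fit of all 35 arrays. P-values were two-sided and adjusted by the Benjamini-Hochberg method over all genes, or all clusters for the shared rows, with a threshold of 0.05. The fit of shCDK19 against shControl cells in normal growth was run on simulated arrays with known changes. Groups of 2 arrays and fits of all 35 arrays were not simulated. The members and lists were chosen with earlier results of these data known. Beside the members, CDK8 and CDK19, the rule named the neighbours, up to 3 called list genes with the largest changes per comparison, and the 5 genes most like each member whose group means span over 1 log2 unit. KRT8, EPCAM, CDH17, VIL1, LGALS4 and PTPRC were named from the marker lists after their values were seen. The alternatives were trend and robust moderation, no moderation, 1 fit of all arrays, the 2 compared groups alone, array medians subtracted, quantile normalization, dim genes left out, the replicate number as a block, the interquartile range as a covariate, and each array left out in turn. A test of the shCDK8 hypoxia response was planned, but the members' values are given as a description, because the line chose them. Promoters and gene order are from RefSeq; all 6 genes matched. Python 3.11.15 with pandas 2.3.3 and numpy 2.4.6, and the R package data.table (version 1.17.8) read the deposited values.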

Additional observations from a re-analysis of the deposited data

Results flagged for a closer look

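The shCDK19 effect on the TM4SF19 shared row differed between experiments. Its effect in 5FU minus its effect in normal growth was 1.30 ± 0.11 (SE, log2; limma over all clusters in 1 fit of 35 arrays, adjusted p = 1.49e-07). Both shCDK19 arrays in 5FU were above both shControl arrays, and all 3 shCDK19 arrays in normal growth were below all 3 shControl arrays. The contrast was added after the values were seen, and the row reads TM4SF19 and its read-through transcript together.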

How the results depend on the processing

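Alternative values of the tested members and the TM4SF19 shared row came to 974. Of these, 942 kept their side of the threshold with no called value changing sign, 16 lost and 13 gained a call, and 3 reversed. Among the 942, 66 changed sign without a call. The reversals came with the interquartile range as a covariate: hypoxia against normal growth gave -0.057 for TM4SF4 and -0.22 for TM4SF5 in shControl cells, and -0.32 for TM4SF5 in shCDK19 cells (adjusted p = 0.784, 0.206 and 0.0157). Of 732 described shCDK8 values, 710 moved by under 1 SD, and 42 of the 732 changed sign.
Genes called are given in the order shCDK19 normal growth, 5FU and hypoxia, shCDK8 normal growth, 5FU and hypoxia, 5FU against DMSO, and shControl hypoxia, with those not listed within 1.5 times. The report's fits called 1301, 154, 42, 4579, 645, 1343, 2109 and 8801. The compared groups alone called 2147, 4 and 0 in shCDK19 (limma, 1486 at an unadjusted p under 0.05 for the 0), 130 in shCDK8 5FU, 48 in shCDK8 hypoxia, 1 for DMSO and 3242 for shControl hypoxia. One-fit counts over all arrays were 1067 and 2641 in shCDK19 5FU and hypoxia, 1713 and 6392 in shCDK8, and 3526 for DMSO. The interquartile range covariate gave 3239, 671 and 142 in shCDK19, 7701, 1506 and 2196 in shCDK8, 3463 for DMSO and 5214 for shControl hypoxia. No moderation gave 20 and 3 in shCDK19 5FU and hypoxia, 238 and 334 in shCDK8, and 849 for DMSO. Trend and robust moderation gave 577 and 212 in shCDK19 5FU and hypoxia and 1192 in shCDK8 5FU. Quantile normalization gave 363 and 969 in shCDK19 and shCDK8 5FU, dim genes left out gave 308 and 99 in shCDK19 5FU and hypoxia, and array medians subtracted gave 781 in shCDK19 normal growth and 122 in shCDK19 hypoxia.
Differences of effects were called for 383 genes (hypoxia), 736 (5FU) and 329 (low glucose). They came to 112, 354 and 146 with array medians subtracted, to 661, 1639 and 1013 with the interquartile range, and to 11 and 1190 for the first pair with the compared groups alone.
Same-numbered replicates deviated together (r over 0.1) in 2 of 9, 6 of 12, 2 of 18 and 2 of 6 pairs. Between groups of 2 arrays both numbers give the same r, so these few values cannot settle whether the numbers pair the samples. The replicate block gave 781, 53 and 1 genes in shCDK19 normal growth, 5FU and hypoxia, and 355 and 312 in shCDK8 5FU and hypoxia.
Leaving out 1 array gave 662 to 814 genes in shCDK19 normal growth, 5 to 9 in 5FU, 2700 to 3655 in low glucose and 0 to 4320 in hypoxia. The 0 came without either shCDK19 hypoxia array (limma, 1278 and 903 at an unadjusted p under 0.05) and the 4320 without shControl hypoxia replicate 2. In shCDK8 it gave 3190 to 6713, 88 to 158, 3227 to 3667 and 2 to 8548. It gave 225 to 2987 for DMSO, 4809 to 5100 for glucose, 4549 to 12096 and 4398 to 5605 for hypoxia in shControl and shCDK19, and 80 to 4567, 445 to 619 and 226 to 310 for the differences of effects.
The share of higher calls moved from 44.1% to 30.4% (shControl hypoxia), 62.6% to 73.5% (DMSO), 73.1% to 84.8% (hypoxia difference) and 54.6% to 43.2% (5FU difference) with array medians subtracted. With quantile normalization it moved from 68.8% to 56.7% (shCDK19 5FU), 65.9% to 55.3% (shCDK8 hypoxia) and 73.1% to 51% (hypoxia difference). With the interquartile range as a covariate it moved to 48.4% (shCDK19 5FU), 71.1% (shCDK19 hypoxia, from 85.7%), 49% (shCDK8 hypoxia) and 47.2% (hypoxia difference). In 1 fit of all arrays it was 56.9% for shCDK19 5FU and 62.4% for shCDK19 hypoxia, and with trend and robust moderation 53.2% for shCDK19 5FU. With the compared groups alone it was 30.8% for shControl hypoxia. The cause of these changes was not tested. Groups of 2 to 3 arrays limit the precision, and TM4SF20 lies at or near the floor.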
